A study of Mus musculus with 55 samples.

Results

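The genes described here are 26 of the 9911 genes whose pre-mRNA was measured in CCNA-GFP mouse ES cells. They were chosen by measured values: each had a log2(TPM + 1) at least 0.6 higher at 30 min after release from mitosis than in mitotic cells, in replicate 1 and again in replicate 3. TPM, the unit of RSEM, is a level corrected for gene length and library size. Low listed values were, however, multiples of a step that differed between libraries, as described with the processing below. A log2 difference below is always a difference of log2(TPM + 1). The 30 min and mitotic libraries of these replicates therefore fix the early rise of the members, and their values are given as a description. What was tested lies elsewhere, namely the later stages in the same line and the whole course in a second line, CTCF-AID, where 25 of the 26 genes are listed (Rpl41 is not).

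CCNA-GFP cells are E14Tg2a ES cells, of the 129/Ola strain, with a cyclin A reporter, a fusion to GFP that follows the cell cycle. CTCF-AID cells, which are 1 clone from the same parental line, carry CTCF fused to a degron, so that auxin (IAA) removes the protein. All mitotic and released cells of both lines went through the CDK1 inhibitor RO-3306 (10 µM, 4 h) and then nocodazole (50 ng/ml, 4 h), were shaken off, and were released by washing. In the +IAA arm of CTCF-AID, mitotic and released cells received 0.5 mM IAA for the last 2 h in nocodazole and then throughout the release, asynchronous cells, which were not released, received it alongside over 4 h, and the −IAA arm received none. There were 19 CCNA-GFP libraries: 3 asynchronous, 3 mitotic, 2 at each of 20, 30, 40, 60, 90 and 120 min, and 1 at 50 min. Each CTCF-AID arm had 18 libraries: 3 asynchronous, 3 mitotic, and 2 at each of 20, 40, 50, 60, 90 and 120 min, with no sample at 30 min. The replicates were separate release experiments. In CTCF-AID replicate 1 holds every stage, replicate 2 lacks 50 and 90 min and replicate 3 lacks 20, 40, 60 and 120 min, and in CCNA-GFP no replicate holds all of the stages.

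Pre-mRNA still holds its introns and is short-lived, so its level follows ongoing transcription more closely than that of mature mRNA. In mitosis most transcription stops, and as cells divide and enter G1 the polymerase returns to the genes within about an hour. Immediate early genes, many of them short, are the classical example of genes that can be switched on quickly without new protein. The tables hold no read counts, so sequencing depth and counting error are unknown, and values were judged by the spread between replicates. The listed TPM summed to between 13747 and 42576 in CCNA-GFP libraries and between 17702 and 43370 in CTCF-AID libraries, lowest in mitosis and at 20 min, so that comparisons with mitosis were made against a background of rising totals. Of the ES cell markers, 5 of 6 were listed in both lines (Pou5f1, Nanog, Zfp42, Dppa5a and Esrrb), with a summed level of 25.3 to 97.4 TPM in CCNA-GFP and 33.3 to 114 TPM in CTCF-AID libraries. None of the 6 primitive endoderm markers was listed. Summed 2C-like markers stayed between 0.384 and 9.01 TPM in CCNA-GFP, and between 0.352 and 4.34 TPM in CTCF-AID. Of 8 fibroblast markers Fn1 was listed in CCNA-GFP, and Col1a1, Thy1 and Fn1 in CTCF-AID. Their sums were 2.03 to 11.5 TPM in the former line and 3.73 to 12.95 TPM in the latter.

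Fzd5, a Wnt receptor of the Frizzled family, led the members by the smaller of its 2 differences at 30 min, 1.03 in replicate 1 against 1.20 in replicate 3. Mir20a followed with 1.97 and 0.95, then Polg2 with 0.89 and 0.92, Hist1h2br with 1.35 and 0.86, H2afz with 1.24 and 0.84, Cd68 with 0.78 and 1.06, and Slbp with 1.05 and 0.77. These values chose the genes, and no test was made on them. The rule took 0.262% of the listed genes. At this size of difference 2.76% of all genes were higher in replicate 1 but 0.404% in replicate 3, so that replicate 3 limited the list. Just inside the threshold were Ubald1 (0.62 as the smaller difference), Rpl7a (0.61) and Eif4a1 (0.61), and just outside were Rbm38 (0.60, 0.598 before rounding), Slc39a7 (0.597) and Topors (0.595).

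At 20 min the 2 replicates of CCNA-GFP differed. In replicate 1, which shares its mitotic library with the rule, 15 of the 26 members were already at least 0.6 above mitosis at 20 min, where 0.545% of all genes were. In replicate 2, which the rule did not use, 1 member reached this size at 20 min (Ckb, the brain-type creatine kinase, with 0.87), against 0.0706% of all genes, and the members' median was 0.16, against 0.64 in replicate 1. The step factor, described with the processing below, was 3.48 in mitosis and 3.49 at 20 min in replicate 1. In replicate 2 it was 3.32 and 2.17, and the part of scaling in this difference between replicates was not tested. At 40 min in replicate 2, 24 of 26 members were at least 0.6 above mitosis, where 14% of all genes were, with a median of 1.55 for the members and 0.20 for all genes. At 60 min it was 25 of 26 (53.2% of all genes), and at 120 min 26 of 26 (58.6% of all genes). Replicate 2 is a single library per stage, and these differences carry no test.

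The plot of 12 members by library shows the course in CCNA-GFP. Of the 26 members, 15 had their highest mean at 50 min and 6 at 60 min. Tssc4 and Adrm1 were highest after 90 min, Ubald1 after 120 min, and Rpl9 and Rps12 in asynchronous cells. Over all genes the shares that were highest after 50, 60, 90 and 120 min were 21.7%, 23.05%, 37.1% and 7.3%. A further 10.4% of all genes had their highest mean in asynchronous cells. The 50 min value is a single library, from replicate 3. In the median member, asynchronous cells held 22.0% of the highest level and 120 min 50.3%, whereas in the median gene these shares were 54.2% and 75.0%. In CTCF-AID, with 2 libraries per arm at 50 min, the background at that stage was higher. Without IAA 17 of 25 members and 48.15% of all genes were highest at 50 min, and with IAA 19 of 25 and 51.2%.

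**Figure D1:**
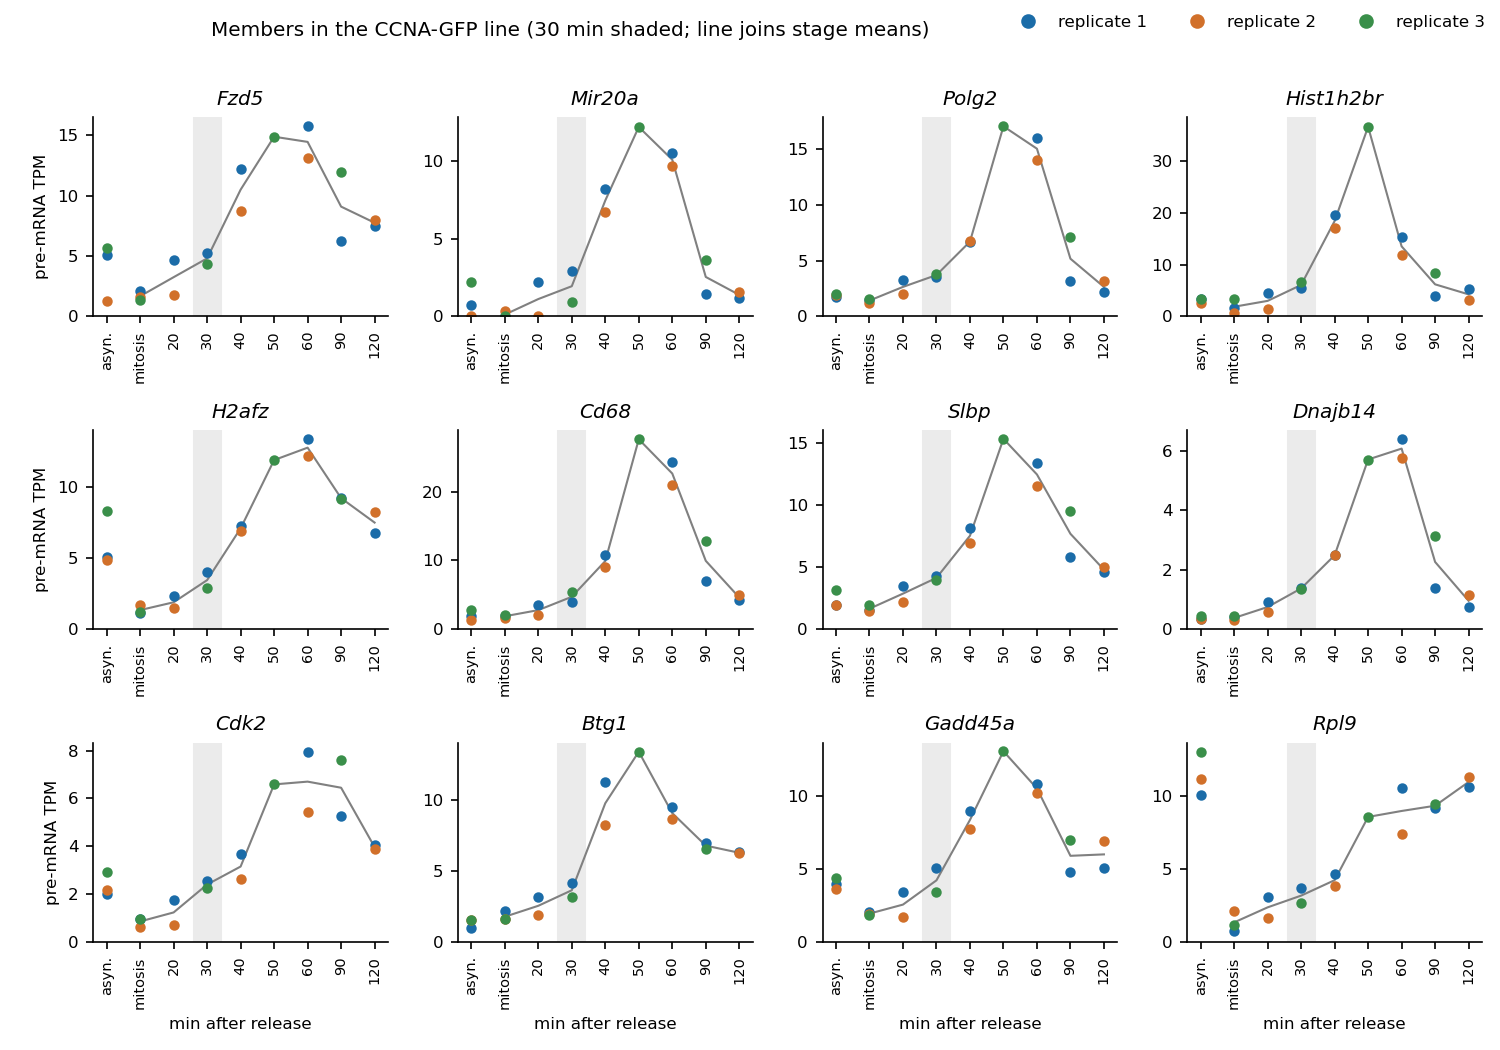
Pre-mRNA level (TPM, linear axis from 0) of 12 members in every CCNA-GFP library, by stage on the horizontal axis (asyn., asynchronous; numbers, min after release), with replicates as coloured points and a grey line joining the stage means. The 30 min libraries, shaded, chose the genes. Mir20a, Hist1h2br and Cd68 peak at 50 min with 12.2, 36.7 and 27.7 TPM, while Rpl9 has its highest mean in asynchronous cells.

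Contrasts between stages that the rule did not use were fitted over the 14 libraries that are neither mitotic nor from 30 min, with the replicate as a block. From 20 to 40 min 24 of 26 members rose (limma with an adjusted p under 0.05), against 31.8% of all genes, with a median log2 difference of 1.14 for the members and 0.20 for all genes. At the same total the calls over all genes went from 3154 higher and 4 lower to 1733 and 1811, with 20 members higher. Without the block 19 members and 8.35% of all genes were called, Pygm, Rpl9, Ndufa11, Tssc4 and Rnasek being lost, and without replicate 2 it was 20 members and 19.3%. The 2 members that were not called were Adrm1 (0.33) and Ubald1 (0.06). From 40 to 60 min 18 members rose and none fell, where 78.0% of all genes rose, so that this share was no higher than the background. That step rested on the scaling: with all libraries brought to the same total 2 members and 13.3% of all genes were called higher, and with values divided by the step factor 6 members and 14.3%. From 60 to 120 min 17 members fell and none rose, against 26.7% of all genes that fell, with medians of −0.72 and −0.11. Without the replicate block 10 of these falls were called (7.35% of all genes fell), and at the same total 13, where 19.5% of all genes fell and 21.4% rose. Among the 8 members that were not called from 40 to 60 min, Hist1h2br, Klhl11, Btg1 and Rnasek had log2 differences of −0.43, 0.05, −0.08 and −0.09.

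Members also stood above asynchronous cells. At 60 min 22 of 26 were higher than in asynchronous cells, where 66.9% of all genes were, with medians of 1.68 and 0.49. With equal totals 33.4% of all genes were higher and 33.6% lower there, with medians of 1.01 for the members and 0.00093 for all genes. At 120 min 23 of 26 were higher, where 63.8% of all genes were, with medians of 0.86 and 0.38. The exceptions at both times were the ribosomal protein genes Rpl9, Rpl41 and Rps12, which differed from asynchronous cells at 60 min by −0.26, 0.14 and 0.02. Ubald1 (0.33) was not called at 60 min either. At 120 min 12 members were called at the same total, where 24.1% of all genes were higher and 22.8% lower, and 12 without the block, where 26.8% of all genes were higher.

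The CTCF-AID line gave a test of the same genes in libraries that had no part in choosing them. In −IAA cells, set against mitosis with the replicate in the model, no gene was called at 20 min in either direction by limma. At an unadjusted p under 0.05, 18 of 25 members and 3.75% of all genes were higher there, and none of the members was lower. The median log2 difference at 20 min was 0.49 for the members and 0.05 for all genes. That of the members depended on the replicate, with 0.76 without replicate 2 and 0.31 without replicate 1, each time with 1 library left at that stage. Of the 20 largest log2 differences at 20 min among all 10237 genes, 10 belonged to members, Mir20a (1.08), Rpl9 (1.03), Fzd5 (0.81), H2afz (0.79), Rps12 (0.79), Rnasek (0.77) and Slbp (0.75) among them. In replicate 2 Rps12 stood at 3.34 TPM in mitosis and 3.09 TPM at 20 min, and Mir20a at 0 TPM in both. The other genes named here were above mitosis at 20 min in both replicates.

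At 40 min 24 of 25 members rose in −IAA cells, where 63.3% of all genes did. The median log2 difference was 1.99 for the members and 0.34 for all genes. That most genes rose rested on the scaling: with all libraries at the same total 3410 genes were called higher and 3755 lower at 40 min, in place of 6477 and 329, with 23 members higher and medians of 1.55 for the members and −0.02 for all genes. Hist1h2br ranked 1 of 10237 genes with 3.78, Mir20a 2 with 3.76, Cd68 3 with 2.74 and Fzd5 5 with 2.69. Members made up 9 of the 20 largest differences and 17 of the 100 largest. Ubald1 (0.94, adjusted p = 0.085) was the member that was not called, though it was with a pseudocount of 0.1 (2.67, adjusted p = 0.0207). Adrm1 had the smallest difference, 0.51 (standard error 0.17, limma adjusted p = 0.0092), which was not called at the same total (0.06), without the block (0.41) or without replicate 2 (0.38).

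At 50 min 25 of 25 members were higher than in mitosis (79.1% of all genes), with a median of 2.26 against 0.60. At 60 min it was again 25 of 25 (84.8% of all genes), with 1.92 against 0.63, and each member was thus called at some −IAA stage. At the same total the calls over all genes at this stage were 4030 higher and 3181 lower, with 23 members higher. At 90 min 24 were higher (74.8% of all genes) with a median of 1.11 against 0.40, Polg2 (0.29) not being called. At 120 min 23 were higher (69.6% of all genes) with 1.17 against 0.34, Polg2 (0.18) and Dnajb14 (0.08) not being called. With equal totals 24 members were higher after 50 min (40.7% of all genes higher, 33.6% lower), 19 after 90 min (34.5% and 25.6%) and 19 after 120 min (32.0% and 25.9%), with members' medians of 1.48, 0.68 and 0.69. In asynchronous cells 9 members were higher than in mitosis (34.3% of all genes) and 1 lower, Pygm (−0.44), with medians of 0.41 and 0.12. The count in asynchronous cells was 5 without replicate 3 and 16 with values divided by the step factor, and over all genes it was 1770 and 6753 in place of 3515.

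In +IAA cells, against their own mitotic libraries, the course was as follows. At 20 min no gene was called, and at an unadjusted p under 0.05 9 members and 1.28% of all genes were higher. At 40 min 24 of 25 members rose (58.7% of all genes), with a median of 1.99 against 0.30, and Ubald1 (0.42) was not called. Of the 25 members, 25 were higher after 50 min (78.2% of all genes), 24 after 60 min (82.2%), 24 after 90 min (73.8%) and 22 after 120 min (68.2%), with medians of 2.30, 1.92, 1.09 and 1.23. With equal totals 22 members were called at 40 min, with Tssc4 (0.41) and Adrm1 (0.33) lost, and over all genes 3397 were higher and 3947 lower in place of 6008 and 396. The members' median was then 1.55. After 50, 90 and 120 min 24, 21 and 19 members were higher on this scale, where 41.0%, 36.8% and 33.5% of all genes were higher and 35.5%, 27.4% and 28.7% lower. After 60 min 40.7% of all genes were higher and 33.2% lower on it, with medians of 1.16 for the members and 0.06 for all genes. In asynchronous cells 11 were higher than in mitosis (40.9% of all genes) and 1 was lower, again Pygm (−0.46). With the step factor it was 13 members and 67.1% of all genes.

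**Figure D2:**
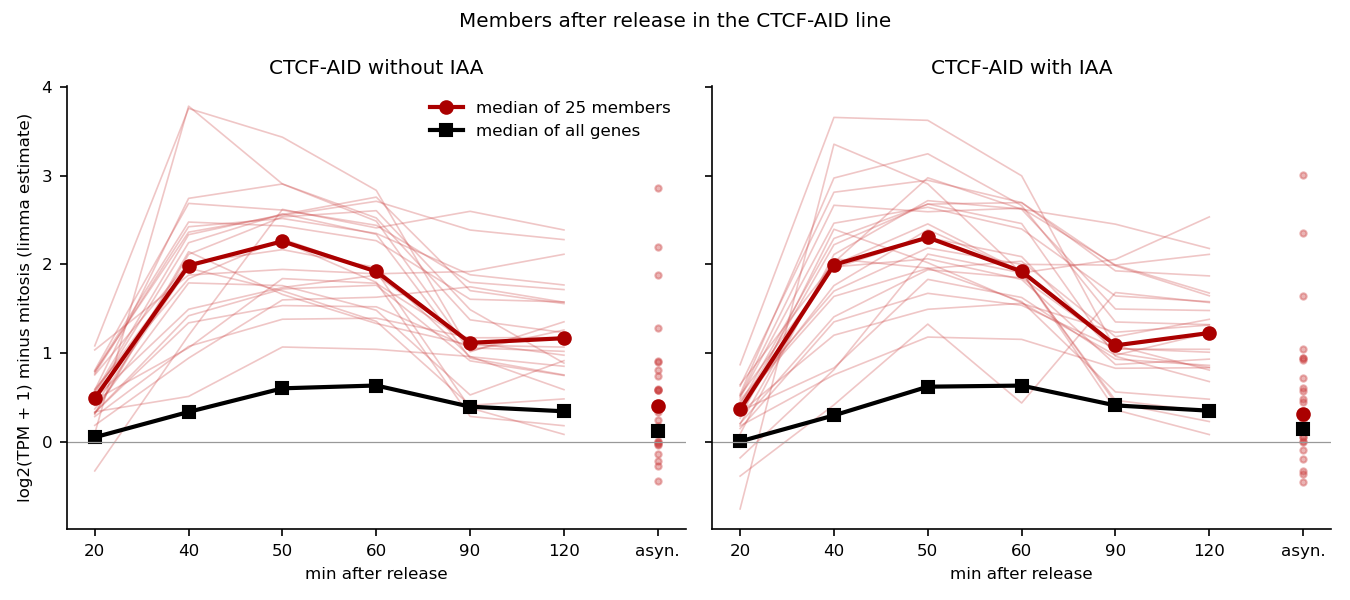
Log2(TPM + 1) at each stage minus mitosis in CTCF-AID cells without (left) and with IAA (right), by min after release; thin lines are 25 members, red circles their median and black squares the median of 10237 genes (limma estimates). The members' median reaches 2.26 without and 2.30 with IAA at 50 min, while the median of all genes stays at or under 0.63.

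**Figure D3:**
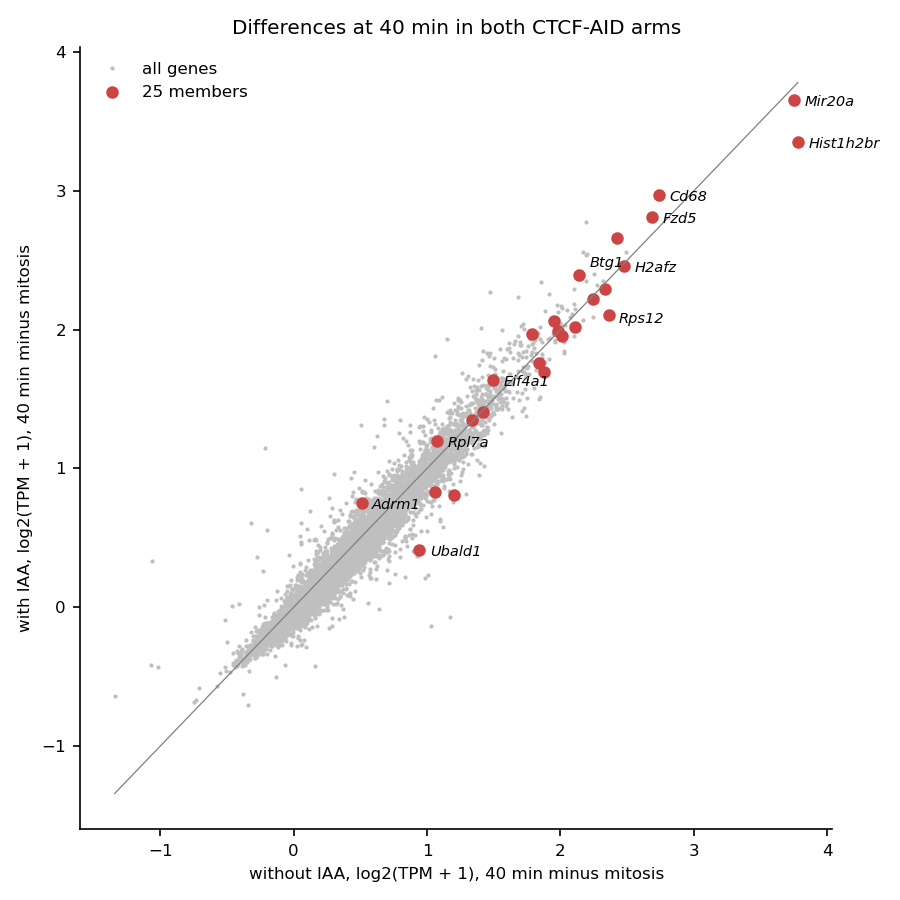
Log2(TPM + 1) at 40 min minus mitosis of each gene, without IAA on the horizontal and with IAA on the vertical axis; grey points are 10237 genes, red points 25 members, and the line marks equal values. Hist1h2br and Mir20a lie farthest out, at 3.78 and 3.76 without IAA, and Adrm1 and Ubald1 lie among the other genes.

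Hist1h2br, which had the largest difference of the members at 40 min without IAA, encodes a core histone H2B, a replication-dependent type whose mRNA ends in a stem-loop rather than a poly(A) tail. In CCNA-GFP it stood at 1.53, 0.698 and 3.23 TPM in the 3 mitotic libraries, at 4.58 and 1.35 TPM at 20 min, at 5.44 and 6.66 TPM at 30 min and at 19.7 and 17.2 TPM at 40 min. It reached 36.7 TPM at 50 min and was back at 5.25 and 3.19 TPM at 120 min, below both 40 min libraries. In −IAA cells Hist1h2br went from 5.31, 1.00 and 2.64 TPM in mitosis to 46.1 and 41.3 TPM at 40 min, without overlap (log2 difference 3.78, standard error 0.41, limma adjusted p = 3.1e-08). Of the 5 histone genes listed in CTCF-AID, 3 rose at 40 min, where 63.3% of all genes did, the others being Hist1h2bc (2.71) and Hist1h2bp (2.19), while Hist1h2bq (0.74, adjusted p = 0.16) and Hist1h2be (−0.03) were not called. Brought to the same total, 3 of the 5 were called higher and 1 lower, where 33.3% of all genes were higher and 36.7% lower. Histone genes have near-identical copies, and how reads were shared between them is uncertain. The Hist1h2br entry spans 3788 bp with up to 3 exons, and its value is that of pre-mRNA. For histone genes the paper took mRNA levels, which were higher in asynchronous cells than after division. Here asynchronous CCNA-GFP cells held 8.35% of the highest Hist1h2br level. How far this value follows the stem-loop mRNA was not tested.

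Slbp encodes the protein that binds this histone stem-loop. In CCNA-GFP it went from 1.53, 1.43 and 1.91 TPM in mitosis to 4.26 and 3.97 TPM at 30 min, 8.10 and 6.92 TPM at 40 min and 15.3 TPM at 50 min. In −IAA cells Slbp was at 2.28, 1.49 and 2.28 TPM in mitosis, at 5 and 2.6 TPM at 20 min and at 11.1 and 9.25 TPM at 40 min (log2 difference 2.01, standard error 0.15, limma adjusted p = 1.6e-10). Both 20 min libraries already lay above the 3 mitotic ones, although the difference of 0.75 was not called (adjusted p = 0.35). H2afz encodes H2A.Z, a histone variant made throughout the cell cycle and placed at promoters. It went from 1.63, 1.15 and 1.01 TPM in mitosis to 3.8 and 1.97 TPM at 20 min and 11 and 11.3 TPM at 40 min in −IAA cells (log2 difference for the latter 2.48, standard error 0.18, limma adjusted p = 1.6e-10). In asynchronous −IAA cells H2afz stood at 6.39 to 8.74 TPM, above all 3 mitotic libraries (log2 difference 1.88), whereas Hist1h2br was not called there (0.74, adjusted p = 0.11).

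Among cell cycle genes, Cdk2, the kinase that acts with cyclins E and A at the start of S phase, was the single member of the G1/S list. In CCNA-GFP it stood at 0.941, 0.631 and 0.956 TPM in mitosis and at 2.54 and 2.24 TPM at 30 min. It then reached 3.65 and 2.64 TPM at 40 min and 7.95 and 5.44 TPM at 60 min. In −IAA cells Cdk2 rose by 1.42 at 40 min (limma adjusted p = 4.8e-09, standard error 0.14) and by 1.76 at 60 min. Of the 33 G1/S genes listed in CTCF-AID, 27 rose and 1 fell at 40 min in −IAA cells, with a median of 0.81, where 63.3% of all genes rose with a median of 0.34. At the same total 21 were called higher and 6 lower, where 33.3% of all genes were higher and 36.7% lower.

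Btg1 and Gadd45a both encode inhibitors of proliferation that are induced fast by many stimuli. Btg1 was at 1.41, 1.17 and 1.35 TPM in −IAA mitosis and at 9.21 and 8.98 TPM at 40 min, its highest stage, and was down to 4.34 and 5.21 TPM at 60 min. Its log2 difference at 40 min was 2.14 (standard error 0.17, limma adjusted p = 3.4e-10), and in CCNA-GFP it went from 2.13, 1.56 and 1.57 TPM in mitosis to 11.3 and 8.24 TPM at 40 min. Btg1 was the single member among 34 immediate early genes listed in CCNA-GFP, although 32 of the 35 listed in CTCF-AID rose at 40 min without IAA, with a median of 1.12 (63.3% and 0.34 over all genes). Gadd45a, on the list of p53 targets, went from 2.44, 1.90 and 2.04 TPM in −IAA mitosis to 10.4 and 8.66 TPM at 40 min (log2 difference 1.79, standard error 0.17, limma adjusted p = 4.5e-09). All 19 p53 targets listed in CTCF-AID were called higher at that stage, where 63.3% of all genes were, with medians of 1.18 and 0.34. At the same total 15 of them were called higher, where 33.3% of all genes were higher and 36.7% lower.

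Fzd5 and Dvl2 belong to the Wnt pathway, as receptor and as the Dishevelled protein that passes the signal on inside the cell. Fzd5, at chr1:64730558-64737751 on the minus strand, was at 2.06, 1.59 and 1.32 TPM in CCNA-GFP mitosis and at 4.68 and 1.78 TPM at 20 min. At 30 min it was at 5.25 and 4.34 TPM and at 40 min at 12.2 and 8.75 TPM. In −IAA cells it rose from 3.65, 2.49 and 2.72 TPM to 25.9 and 18.4 TPM at 40 min (log2 difference 2.69, standard error 0.33, limma adjusted p = 1.9e-07). In −IAA cells Dvl2 was at 11.5 and 14.1 TPM at 40 min, at 14.4 and 18 TPM at 50 min and at 14.1 and 21.4 TPM at 60 min, from 2.44, 1.42 and 1.81 TPM in mitosis. Its 50 and 60 min libraries overlapped, and in +IAA cells its highest mean was at 50 min. No member was on the lists of signalling targets, pluripotency, actin, SRF and YAP targets, heat shock, integrated stress, cholesterol synthesis, Myc network, FGF and ERK feedback, tubulin, mitotic or zinc finger genes. Members were 0.262% of all listed genes, and these lists held 11 to 25 genes in CCNA-GFP, or 271 for zinc finger genes. Absence from lists of this size is therefore uninformative.

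The translation machinery gave 5 members: the ribosomal protein genes Rpl9, Rpl41, Rps12 and Rpl7a and the initiation factor helicase Eif4a1. Rps12 went from 2.15, 3.34 and 0.802 TPM in −IAA mitosis to 15.6 and 13.8 TPM at 40 min (log2 difference 2.36, standard error 0.28, limma adjusted p = 1.3e-07) and stood highest in asynchronous cells, at 19.0, 20.0 and 21.5 TPM. Rpl9 behaved likewise, with 3.28, 1.00 and 0.673 TPM in mitosis, 10.3 and 6.60 TPM at 40 min and 10.2, 8.32 and 12.2 TPM in asynchronous −IAA cells. Rps12 and Rpl9 were thus the pair whose asynchronous level was their highest, in CCNA-GFP and in both CTCF-AID arms. Rpl7a and Eif4a1 started higher and gained less, Rpl7a with 10.8, 11.8 and 10.1 TPM in −IAA mitosis and 24.4 and 21.5 TPM at 40 min (log2 difference 1.07), and Eif4a1 with 12.1, 9.67 and 10.7 TPM and then 29.5 and 29.6 TPM (log2 difference 1.49). Rpl41, seen in CCNA-GFP alone, went from 6.15 and 3.49 TPM at 20 min to 13.7 and 12.9 TPM at 40 min (log2 difference 1.33, limma adjusted p = 2.6e-06). Of 79 ribosomal protein genes listed in CTCF-AID, 52 rose and 3 fell at 40 min without IAA, with a median of 0.42, where 63.3% of all genes rose with a median of 0.34. At the same total the direction of these genes turned, with 23 called higher, 36 lower and a median of −0.14, as did that of all genes, with 33.3% higher, 36.7% lower and a median of −0.02. Ribosomal protein genes have many processed pseudogenes, so that the sharing of reads is uncertain here too, and Rps12, Rpl7a and Eif4a1 each hold 3 small RNA genes within their span.

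Mir20a encodes a microRNA that is cut from a long precursor, Mir17hg, and acts on cell cycle and survival genes. Its mature products, from RefSeq on GRCm38.p6, are shown because the seed, bases 2 to 8 from the 5′ end and in capitals, is what pairs with targets.
mmu-miR-20a-5p (chr14:115044183-115044205, plus strand): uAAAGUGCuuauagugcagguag
mmu-miR-20a-3p (chr14:115044219-115044240, plus strand): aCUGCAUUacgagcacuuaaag
The entry spans 107 bp, and the value is that of precursor RNA over this stretch, not of the mature microRNA. In CCNA-GFP, Mir20a was listed at 0, 0.299 and 0 TPM in mitosis, at 2.20 and 0 TPM at 20 min, at 2.92 and 0.932 TPM at 30 min and at 8.17 and 6.73 TPM at 40 min. In −IAA cells it was listed at 0.087, 0 and 0 TPM in mitosis, at 2.68 and 0 TPM at 20 min and at 13.7 and 9.20 TPM at 40 min (log2 difference 3.76, standard error 0.36, limma adjusted p = 5.1e-09). The 20 min libraries disagreed in both lines, and the 40 min ones lay far above mitosis. Mir17hg, the gene around it on the same strand, had another course: in CCNA-GFP its mean was 6.55 ± 1.08 TPM in mitosis (SD over 3 libraries) and 12.8 ± 0.597 TPM after 40 min. It was highest after 120 min, with 30.02 ± 1.87 TPM (SD over 2 libraries), when Mir20a was down to 1.17 and 1.56 TPM. In −IAA cells Mir17hg rose by 0.52 at 40 min (adjusted p = 0.0015) and by 1.33 at 60 min. How reads were divided between both entries was not tested.

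Cd68 encodes a lysosomal membrane glycoprotein best known from macrophages. It was at 1.88, 1.56 and 2.08 TPM in CCNA-GFP mitosis, at 3.94 and 5.43 TPM at 30 min, at 10.7 and 9.07 TPM at 40 min and at 27.7 TPM at 50 min, and fell to 4.22 and 4.94 TPM at 120 min. In −IAA cells it went from 2.61, 1.27 and 2.72 TPM to 15.2 and 19.0 TPM at 40 min (log2 difference 2.74, standard error 0.21, limma adjusted p = 3.5e-10). Asynchronous −IAA cells held 1.54, 1.28 and 2.92 TPM, overlapping the mitotic libraries (log2 difference −0.14, adjusted p = 0.58). At 20 min Cd68 stood at 4.43 and 1.99 TPM in −IAA cells, the latter within the mitotic range. Each lay above the mitotic library of its own replicate, at 2.61 and 1.27 TPM.

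Polg2, the accessory subunit of the mitochondrial DNA polymerase, and Dnajb14, a co-chaperone of the Hsp40 family, shared this transient course. Polg2 was at 17.1 TPM at 50 min in CCNA-GFP and at 2.13 and 3.13 TPM at 120 min, after 1.46, 1.20 and 1.55 TPM in mitosis. Dnajb14 was at 0.383, 0.299 and 0.422 TPM in mitosis, at 2.49 and 2.48 TPM at 40 min, at 6.39 and 5.76 TPM at 60 min and at 0.734 and 1.16 TPM at 120 min. Between 60 and 120 min the largest falls among the members were those of Mir20a (−2.23, limma adjusted p = 3.8e-09), Polg2 (−2.16, adjusted p = 1.9e-10) and Cd68 (−2.08, adjusted p = 6.0e-11), followed by Dnajb14 (−1.87) and Hist1h2br (−1.50). No member was called higher at 120 than at 60 min. Rpl9 and Ubald1 had values of 0.28 and 0.59 there, and the former was called at the same total and the latter with values divided by the step factor, under the filter of 1 TPM on the mean and without replicate 3.

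The remaining members have diverse roles. Atp1b1, the beta subunit of the sodium pump, rose by 2.24 at 40 min in −IAA cells and was at 15.0 and 12.1 TPM after 2.59, 1.83 and 2.33 TPM in mitosis. Ckb, the creatine kinase named above, rose by 2.11, and Pygm, the muscle form of glycogen phosphorylase, by 1.06, at a low level of 2.27 and 2.43 TPM. Ndufa11, a subunit of respiratory complex I, rose by 1.34 and Rnasek, a ribonuclease, by 2.42, from 1.09, 1.12 and 1.76 TPM to 10.8 and 11 TPM. Klhl11, a Kelch-like protein of the kind that couples substrates to cullin 3 ubiquitin ligases, rose by 1.96 (standard error 0.13, limma adjusted p = 3.0e-11). Adrm1, a ubiquitin receptor of the proteasome, was at 3.10 and 3.12 TPM at 40 min, close to the highest mitotic library at 2.89 TPM, and rose by 1.07 at 50 min. Tssc4 gained most after 40 min: it stood at 2.2 and 0 TPM at 20 min, 4.78 and 3.61 TPM at 40 min and 14 and 14.4 TPM at 50 min in −IAA cells. Ubald1 had the largest standard error of the members there (0.48), with 4.48, 0 and 0 TPM in −IAA mitosis and 5.39 and 1.91 TPM at 40 min, so that its libraries overlapped there. Each of these 40 min libraries lay above the mitotic one of its own replicate. In +IAA cells without replicate 1, the log2 difference of Ubald1 at 40 min was −0.57.

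Whether CTCF bears on these genes was addressed by comparing +IAA with −IAA at each stage. No member was called at any of the 8 stages (limma, adjusted p under 0.1 and an absolute log2 difference over 0.2). Over all genes 0% were called in mitosis and after 20 and 40 min, 0.283% after 50 min and 0.225% after 60 min. After 90 min it was 0.733%, after 120 min 0.586%, and in asynchronous cells 1.01%. The paper, with DESeq2 on counts, reported a set of genes that responded to CTCF depletion early after release. The shares given here are those of limma on TPM, with 2 libraries per arm at 20 and 40 min. A share of 0% in this test does not show that no gene responds. At an unadjusted p under 0.05, Rps12 (−0.77) and Rpl9 (−0.64) were lower with IAA at 20 min and Tssc4 (−0.70) in asynchronous cells, and no member was higher. Over all genes 0.274% were lower at this level at 20 min and 1.61% in asynchronous cells. The median difference over the members was −0.07 in mitosis, −0.22 after 20 min and −0.07 after 40 min. It was 0.10 after 50 min and 0.03 after 60 min, and over all genes it was −0.06 at 20 min. At 20 min 2 of 25 members had a difference above 0, but the median there rested on replicate 1: it was 0.04 without replicate 1 and −0.48 without replicate 2. H2afz stood at 3.8 TPM without and 1.64 TPM with IAA in replicate 1, but at 1.97 and 2.24 TPM in replicate 2.

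A p above the threshold does not show that the arms are alike, and the intervals give the limits. At 40 min the 95% interval of the IAA effect lay within 1 log2 unit of 0 on both sides for 22 of 25 members, at 20 min for 18 and at 60 min for 21. With the replicate block this held for 24, 19 and 23 members. The widest at 40 min belonged to Ubald1, from −2.13 to 1.77 without the block and from −1.24 to 0.88 with it. For Fzd5 the effect at 40 min was −0.04 with libraries of 25.9 and 18.4 TPM without and 22.8 and 19.9 TPM with IAA. Hist1h2br stood at 46.1 and 41.3 TPM without and at 44.2 and 40.4 TPM with IAA at 40 min, and the libraries of the arms overlapped. The difference in rise from mitosis between the arms was tested as an interaction at 20, 40 and 60 min, and neither a member nor any other gene was called (0% of all genes at each). With the replicate block no member was called either, but 1 other gene was called at 40 min, and after 60 min 5 genes had a positive and 17 a negative interaction. The block also raised the calls of an IAA effect over all genes, from 29 to 24 higher and 77 lower at 50 min, from 23 to 18 and 85 at 60 min, from 75 to 46 and 129 at 90 min, from 60 to 41 and 105 at 120 min and from 103 to 92 and 157 in asynchronous cells. In the interaction no member had an unadjusted p under 0.05, with or without the block, whereas without it over all genes the 20 min interaction had 3 above and 9 below 0 at this level, that of 40 min 13 and 7, and that of 60 min 30 and 49.

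**Figure D4:**
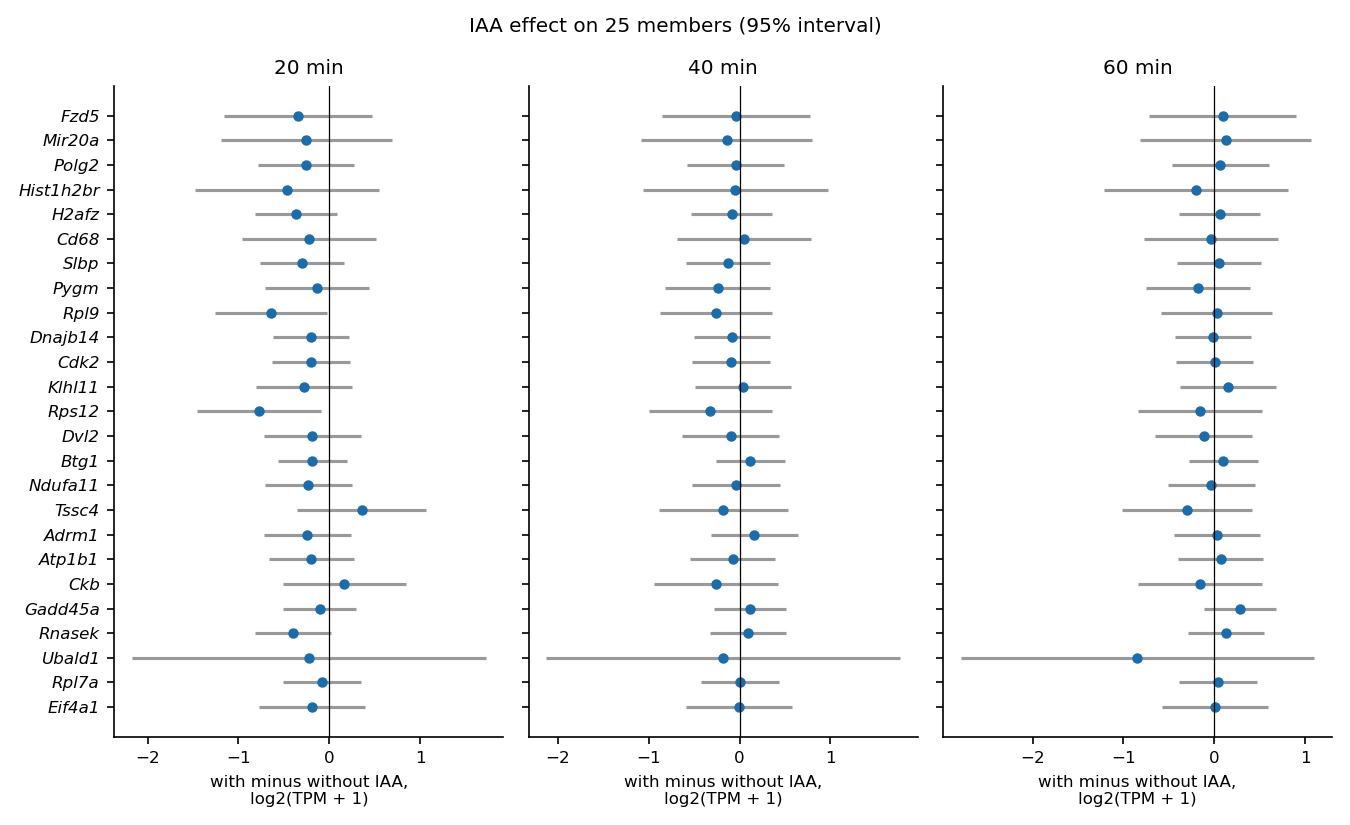
Effect of IAA on each member at 20, 40 and 60 min in CTCF-AID cells, as log2(TPM + 1) with minus without IAA (points) with its 95% interval (lines, limma without the replicate block). At 40 min the points lie between −0.32 and 0.16, and the interval of Ubald1 is the widest at all 3 stages.

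Some features that the rule did not use directly were more frequent among the members than among all genes. The median genomic span was 4588.5 bp, against 22653 bp over the 9885 listed genes with an annotation (GENCODE vM21 on GRCm38, the assembly of mm10). A span under 5000 bp was found in 14 of 26 members (53.8%) and in 11.1% of all genes, and the longest member, Dnajb14, spans 48883 bp. The median of the highest exon number of a transcript was 6 against 9. The median of the mean mitotic level in CCNA-GFP was 1.64 TPM for the members and 0.951 TPM for all genes. These comparisons were not matched for level, on which a difference of log2(TPM + 1) depends. The part of gene length in the result was not tested.

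**Figure D5:**
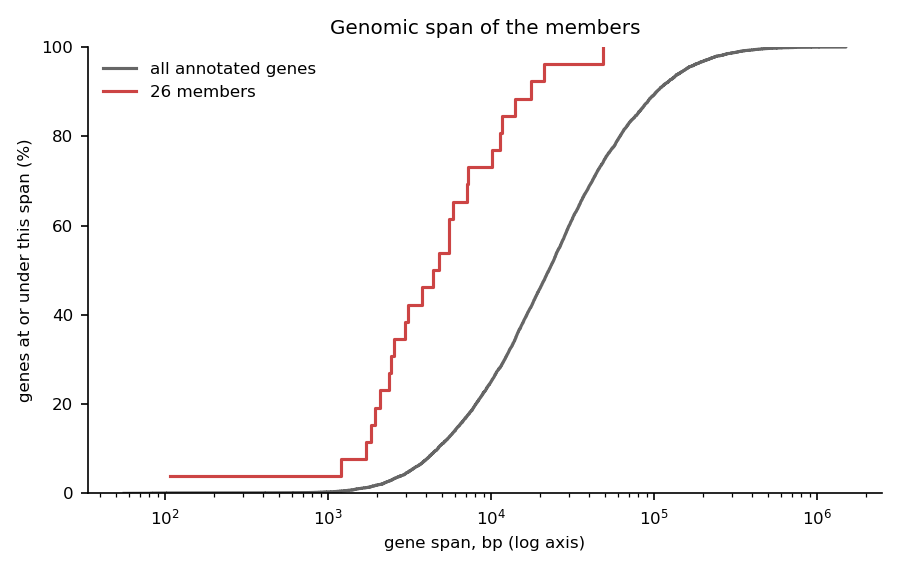
Cumulative share of genes (%, vertical axis) by genomic span (bp, log axis) for the 26 members (red) and all 9885 annotated genes listed in CCNA-GFP (grey). Of the members 53.8% lie under 5000 bp, against 11.1% of all genes.

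In 6 of 26 members (23.1%) a gene on the same strand ended within 1000 bp upstream of the start, which held for 3.93% of all genes. H2afz (chr3:137864487-137866922, plus strand) ends 752 bp before Dnajb14 (chr3:137867675-137916557), and Eif4a1 (chr11:69666936-69672423, minus strand) ends 782 bp before Cd68 (chr11:69664213-69666153), both pairs being members. In these pairs the upstream gene had the higher level at 40 min in −IAA cells, 11.1 ± 0.174 TPM for H2afz against 4.09 ± 0.389 TPM for Dnajb14 (SD, n = 2) and 29.6 ± 0.0559 TPM for Eif4a1 against 17.1 ± 2.68 TPM for Cd68. Polg2 lies 817 bp behind Ddx5, which was at 30.6 ± 1.28 TPM at 40 min in −IAA cells against 11.7 ± 1.46 TPM for Polg2, and rose by 1.44. Slbp lies 641 bp behind Tmem129, which had the lower level of the pair at 40 min, 3.25 ± 0.677 TPM, and Dvl2 lies 585 bp behind Phf23, at 4.01 ± 1.35 TPM. Tmem129 and Phf23 rose by 1.12 and 1.52 at 40 min. Eif4a1 lies 691 bp behind Senp3, which was not called there (adjusted p = 0.98). The part of the genes in front in the members' values was not tested. Chromosome 11 carried 6 of 26 members (23.1%), against 8.79% of all genes. They are not all separate loci: the starts of Cd68 and Eif4a1 lie 6270 bp apart and those of Dvl2 and Rnasek 239247 bp apart. Chromosome X carried 0 members, against 3.20% of all genes, and no other chromosome was compared.

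Promoter sequence was read for the 22 members with a RefSeq promoter (GRCm38.p6, 250 bases before to 50 after the start) and set against 7937 listed genes. The letters TGACTCA, the classical site of AP-1 factors, stood on either strand in 4 of 22 members (18.2%: Cd68, Rpl9, Dvl2 and Ubald1) and in 2.91% of all promoters. CCAAT stood in 11 of 22 (50.0%) against 40.1%, GGGCGG in 14 (63.6%) against 68.0%, TATAAA in 2 (Btg1 and Ckb; 9.09%) against 6.21%, and CACGTG in 2 (Dvl2 and Eif4a1) against 11.1%. Of the other letters searched, CCGGAAG stood in 3 (13.6%) against 20.6%, TGACGTCA in 1 (Ndufa11) against 3.68%, and the CArG box in none against 1.22%. These are matches of letters and show no binding. The promoters of Fzd5 and Slbp are printed as those of a leading receptor gene and of the histone stem-loop gene, and those of Cd68 and Dvl2 because they hold TGACTCA; capitals mark the motif letters named above, as written or in reverse complement.
Fzd5 (chr1:64737701-64738000, minus strand): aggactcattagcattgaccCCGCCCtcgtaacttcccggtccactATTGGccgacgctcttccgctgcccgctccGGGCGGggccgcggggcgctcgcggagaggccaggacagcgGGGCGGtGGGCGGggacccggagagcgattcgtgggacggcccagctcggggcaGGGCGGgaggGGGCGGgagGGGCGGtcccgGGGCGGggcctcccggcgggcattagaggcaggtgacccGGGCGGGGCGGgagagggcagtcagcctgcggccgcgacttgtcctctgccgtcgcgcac
Slbp (chr5:33652525-33652824, minus strand): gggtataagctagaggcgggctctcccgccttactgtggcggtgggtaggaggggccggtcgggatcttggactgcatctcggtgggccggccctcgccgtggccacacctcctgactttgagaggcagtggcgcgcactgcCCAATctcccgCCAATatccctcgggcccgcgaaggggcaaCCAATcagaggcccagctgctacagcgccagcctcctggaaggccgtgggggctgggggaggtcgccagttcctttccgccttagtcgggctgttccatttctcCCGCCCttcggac
Cd68 (chr11:69666121-69666420, minus strand): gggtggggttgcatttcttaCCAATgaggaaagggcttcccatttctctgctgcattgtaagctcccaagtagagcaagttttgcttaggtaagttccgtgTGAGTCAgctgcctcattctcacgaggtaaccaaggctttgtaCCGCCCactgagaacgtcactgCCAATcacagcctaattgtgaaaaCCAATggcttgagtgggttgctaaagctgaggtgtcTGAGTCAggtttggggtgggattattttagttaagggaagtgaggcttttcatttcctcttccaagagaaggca
Dvl2 (chr11:70000342-70000641, plus strand): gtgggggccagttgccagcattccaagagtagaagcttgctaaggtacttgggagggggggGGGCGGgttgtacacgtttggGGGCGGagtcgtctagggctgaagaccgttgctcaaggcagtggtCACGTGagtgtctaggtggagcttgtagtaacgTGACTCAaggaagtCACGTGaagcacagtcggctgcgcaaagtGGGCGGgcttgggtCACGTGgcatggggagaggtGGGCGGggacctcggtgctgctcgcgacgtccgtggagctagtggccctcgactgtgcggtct

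In Cd68 the TGACTCA letters occur 2 times, from positions −149 and −24 relative to the RefSeq start, and 3 CCAAT boxes lie between and upstream of them. In Dvl2 they begin at position −90, among 3 CACGTG elements. In Rpl9 they begin at −115 and in Ubald1 at 7, and both windows are shown with these letters in capitals and 25 bases on each side.
Rpl9 (chr5:65391515-65391571, minus strand): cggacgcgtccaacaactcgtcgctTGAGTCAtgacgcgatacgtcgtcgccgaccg
Ubald1 (chr16:4879813-4879869, minus strand): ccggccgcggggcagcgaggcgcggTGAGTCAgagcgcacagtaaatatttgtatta
The RefSeq start of Ubald1 lies 464 bp from that of GENCODE. Among the genes with these letters, the highest mean in −IAA cells was at 50 min for Cd68, at 60 min for Dvl2 and Ubald1, and in asynchronous cells for Rpl9. Fzd5 holds GGGCGG several times and TGACTCA not at all in this window.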

How the data were processed

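Pre-mRNA was measured by stranded, ribo-depleted, paired-end RNA-seq. The authors aligned reads to mm10 with STAR, ran RSEM on a Gencode vM12 annotation in which each gene had an extra pre-mRNA isoform, and deposited TPM of that isoform for RefSeq curated genes whose mean passed 0.5 TPM in asynchronous cells or in 2 or more of the post-mitotic samples. All columns were used. Asynchronous CTCF-AID headers were garbled and were matched by their labels. Values under 3 TPM were whole multiples of 1 step per library, to within 2.69e-05 of a step. The step over 0.01 is called the step factor, which no source names. It ran from 2.17 to 3.81 in CCNA-GFP libraries and from 1.84 to 2.80 in CTCF-AID libraries.

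The members, gene lists and tests were chosen with earlier results of these data known. Named genes are the leading members of the rule, of 40 min without IAA and of the fall from 60 to 120 min, those on a list, those around the threshold, and the others by role.

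Stages were compared with limma 3.58.1 (R 4.3.3; lmFit and eBayes with trend) on log2(TPM + 1), with Benjamini-Hochberg adjustment over all genes of the table, at an adjusted p of 0.05. IAA effects and interactions were fitted without a block at 0.1, the former with an absolute log2 difference over 0.2. The authors' test, DESeq2 on counts, was not used, since only TPM were analysed. Fits were tested on simulated data. The depth is unknown. Equal replicate numbers mark 1 release experiment, and deviations of equal numbers correlated above 0.1 in 20 of 20 stage pairs of CCNA-GFP and 39 of 40 of CTCF-AID. Python 3.11.15 (pandas 2.3.3, numpy 2.4.6) was used otherwise. Positions are from GENCODE vM21, promoters and microRNAs from RefSeq (GRCm38.p6). Other pseudocounts, filters, scalings and blocks, and leaving out each replicate, were tried.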

Additional observations from a re-analysis of the deposited data

How the results depend on the processing

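The number of genes that the rule takes moved from 26 to 73 with a pseudocount of 0.5 and 7 with 2, 58 at a threshold of 0.5 and 5 at 0.8, 14 with libraries at the same total and 49 with values divided by the step factor. All 26 members were kept with the pseudocount of 0.5, the threshold of 0.5 and the step factor, and 13 at the same total. Members called higher from 40 to 60 min in CCNA-GFP went from 18 to 2 at the same total and 6 with the step factor. Members called higher at 120 min than in asynchronous cells went from 23 to 12, both at the same total and with no replicate block, and those lower at 120 than at 60 min from 17 to 10 with no replicate block. In −IAA cells the count at 20 min went from 0 to 1 at the same total and ran from 0 to 2 with a replicate left out, and that in asynchronous cells went from 9 to 16 with the step factor and ran from 5 to 12 with a replicate left out. With the replicate block no IAA effect or interaction was called among the members, while over all genes the interaction at 60 min went from 0 calls to 5 higher and 17 lower.

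At the same total, log2 differences from 20 to 40 min turned to −0.000467 for Adrm1 and −0.38 for Ubald1, and those from 60 to 120 min to 0.12 for Rps12, 0.16 for Tssc4, 0.025 for Adrm1, 0.12 for Rnasek and 0.12 for Rpl7a. With the step factor the latter were 0.044 for Rps12, 0.081 for Tssc4, 0.050 for Rnasek and 0.041 for Rpl7a. None of these falls was called. Ubald1 also turned when a replicate was left out, with a range of −0.57 (without replicate 1) to 1.39 at 40 min in +IAA cells and of −0.40 (without replicate 2) to 0.055 from 20 to 40 min. The cause was not tested. The gene lists were compared under both scalings by a choice made after seeing the data: at the same total the median at 40 min without IAA turned to −0.14 for the ribosomal protein genes, −0.20 for FGF and ERK feedback, −0.16 for pluripotency, −0.17 for ES cell markers, −0.18 for 2C-like markers and −0.02 for zinc finger genes, and to −0.02 for all genes. With this scaling the median difference of all genes at 60 min without IAA was 0.06 in place of 0.63, and that of the members 1.19 in place of 1.92. Without replicate 1 the CCNA-GFP contrasts had no residual degrees of freedom and were not run. The tables hold no counts, so counting error could not be separated from the spread between libraries.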
